A study of Mus musculus with 2 samples.

Results

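Fascia-type fibroblast spots were the capture spots of each skin section with the largest share of reads from 6 genes. These genes, Pi16, Dpp4, Scara5, Prg4, Msln and Enpp2, were taken as markers of fibroblasts of the fascia and of the adventitia around vessels. Spots with at least 500 UMIs (unique molecular identifiers, each counted as 1 captured transcript) were ranked in each section by the summed UMIs of these genes over all UMIs of the spot. The top 60 were taken, with ties going to the spot with more total UMIs. This gave 120 of the 2263 spots over tissue. In the section from the S1pr2 fl/fl mouse they were 60 of 1096 kept spots (5.47%), and in the section from the S1pr2 fl/fl K14-Cre mouse 60 of 947 (6.34%). Both groups carried the floxed S1pr2 alleles, and in the second the keratin 14 promoter drives Cre, which deletes the sphingosine-1-phosphate receptor S1PR2 in keratinocytes and other keratin 14 expressing epithelium, not in fibroblasts. Mice of both genotypes, 8 weeks old, received 62.5 mg of 5% imiquimod (IMQ) cream a day for 7 days on dorsal skin depilated 1 day before, and 10 µm sections cut from fixed skin in paraffin were captured on an array with a capture area of 11 mm a side. Each genotype had 1 section and no untreated section was included, so no difference between genotypes has a replicate check, and genotype and section cannot be told apart. All comparisons below are descriptions within a section, without a p-value.

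The fascia is the loose connective tissue under the dermis and, in mouse skin, around the panniculus carnosus muscle. Its fibroblasts share a programme with the so-called universal fibroblasts of many organs, which lie around vessels, express Pi16, Dpp4 and Cd34, and are regarded as a reserve from which more specialised fibroblasts can arise. After skin injury, fascia fibroblasts are known to move upward and carry matrix into the wound.

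The counts behind these spots were small. The fl/fl section held 5315351 UMIs over 1282 spots, and its 60 marker-ranked spots held 191579 of them, at a median depth of 2881.5 (range 519 to 7216) against 4435.5 in the remaining kept spots. The K14-Cre section held 2845826 UMIs over 981 spots, and its 60 spots held 115483, with a median of 1616.5 (range 501 to 4776) against 2436. Ranking by a share favours shallow spots, since 1 UMI weighs more there, and the marker-ranked spots had a median of 1489.5 detected genes against 2106.5 in the fl/fl section and 826 against 1107 in the K14-Cre section. A spot is a small region that can hold several cells, and a lower level in it can come from fewer cells of a type or from less RNA per cell, which cannot be told apart. The sections shared 357 barcodes of the array, 2 of them between marker-ranked spots, as both were captured on arrays with the same set of barcodes.

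Marker UMIs per spot had a median of 5 (range 1 to 16) in the fl/fl section and 4 (range 1 to 27) in the K14-Cre section. In the former, 5 spots entered on 1 marker UMI, 7 on 2 and 48 on 3 or more, and 25 spots held 3 or more of the 6 genes. In the latter, 3 spots entered on 1 UMI, 11 on 2 and 46 on 3 or more, but only 4 held 3 or more of the genes and 35 rested on a single gene. The last spot taken in the fl/fl section had 1371.74 CPM of the markers (counts per 1000000 UMIs, here of the spot) and the next had 1365.19. The K14-Cre values were 1449.28 and 1415.93. The ranks next to the limit were therefore almost equal in level. Shallow or lopsided spots led both rankings: the top fl/fl spot had 3 marker UMIs of 519, and the top K14-Cre spot had 15 marker UMIs, all from Msln.

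**Figure D1:**
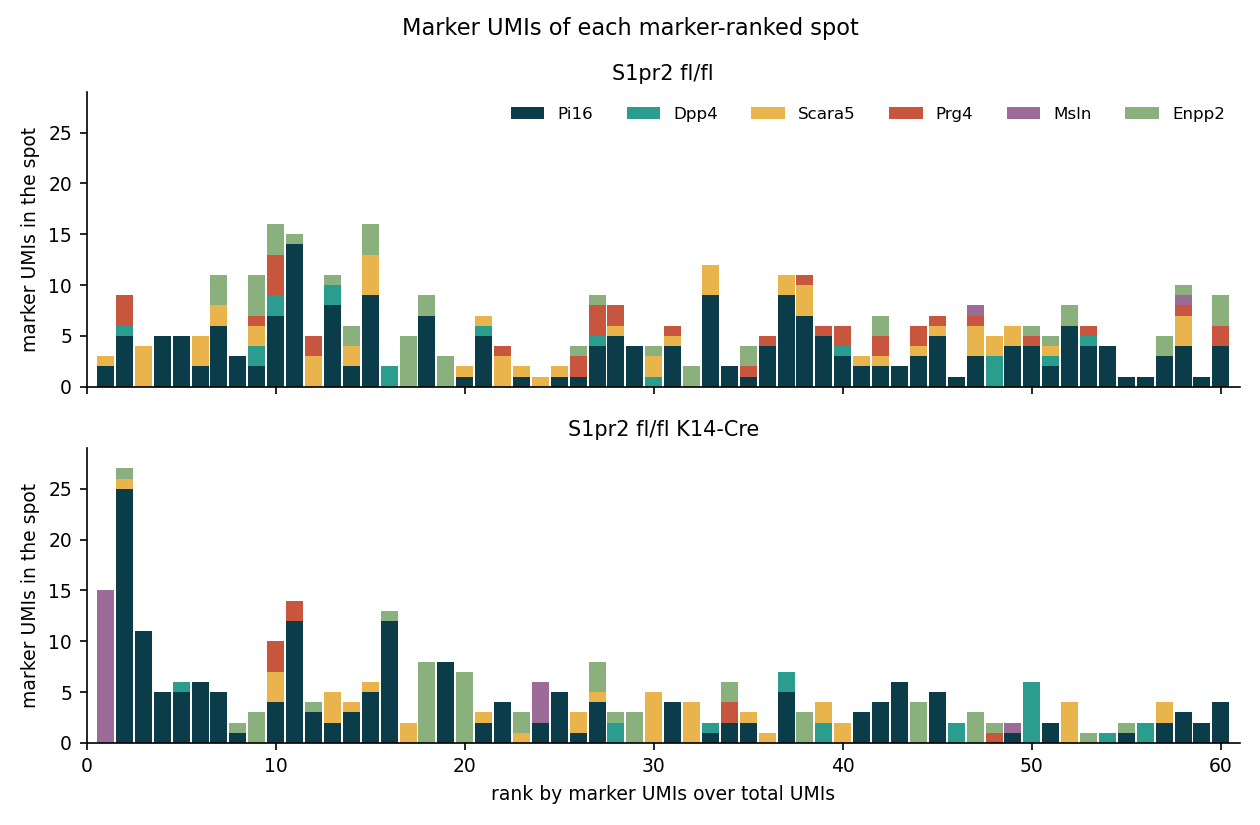
UMIs of the 6 marker genes (y axis) in each of the 60 marker-ranked spots of a section, ordered by rank (x axis), stacked by gene. Most fl/fl spots combine several genes, whereas 35 of the 60 K14-Cre spots hold a single gene, among them a spot with 15 Msln UMIs.

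Pi16 carried the ranking. This gene, for a peptidase inhibitor that marks universal fibroblasts (GRCm38.p6, chr17:29318796-29328903), gave 55.7% of the marker UMIs of the fl/fl spots and 57.0% of those of the K14-Cre spots. Its level was 1039 CPM in the fl/fl spots against 137 CPM in the remaining spots, with at least 1 UMI in 50 of 60 spots. Its K14-Cre level was 1489 CPM against 76.4 CPM, with a UMI in 37 of 60 spots. Scara5, a ferritin receptor (chr14:65666403-65764826), followed with 292 against 40.9 CPM in the fl/fl section and 320 against 46.7 CPM in the K14-Cre section. Enpp2, which encodes autotaxin, the enzyme that makes lysophosphatidic acid (chr15:54838901-54952789), stood at 240 against 43.5 CPM and at 398 against 50.3 CPM. Dpp4, a membrane peptidase also known as CD26 (chr2:62330073-62412315), was found in 12 fl/fl spots and 9 K14-Cre spots, at 94.0 and 165 CPM. Prg4, for the joint and fascia lubricant lubricin (chr1:150449412-150466221), was found in 22 fl/fl spots at 188 CPM but in 4 K14-Cre spots at 69.3 CPM. Msln, a surface protein of mesothelial cells (chr17:25748613-25754378), had 2 UMIs in the fl/fl spots and 20 in 3 spots of the K14-Cre section, 15 of them in the top spot. These levels chose the spots and are given only to show what they were chosen on.

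The label was set against the data by ranking the spots on 5 of the markers and reading the marker left out. In the fl/fl section every marker with a UMI in the spots so chosen was higher there: Pi16 2.23-fold (95% counting interval 1.74 to 2.84), Scara5 2.22-fold (1.36 to 3.43), Enpp2 2.59-fold (1.62 to 3.94), Prg4 3.83-fold (2.30 to 6.07) and Dpp4 1.90-fold, whose interval of 0.891 to 3.61 spans 1. Pi16 was found in 51.7% of the spots ranked without it and in 34.9% of the others. Among the K14-Cre spots the intervals of all 5 spanned 1: Pi16 1.09-fold (0.660 to 1.71), Dpp4 0.968-fold (0.195 to 2.95), Scara5 1.37-fold (0.644 to 2.59), Prg4 2.98-fold (0.918 to 7.55) and Enpp2 1.30-fold (0.615 to 2.46). Pi16 was found there in 16.7% of the spots ranked without it and in 16.2% of the others. Msln had 0 UMIs in the spots ranked without it in both sections, with an interval of the ratio of 0 to 4.83 in the fl/fl section and, against 37.1 CPM in the other spots, of 0 to 0.881 in the K14-Cre section, wholly below 1. Pi16, Scara5, Enpp2 and Prg4 thus lay with the other markers in the fl/fl section, while this was not shown for Dpp4 or Msln. At this number of UMIs no such link was detectable in the K14-Cre section. The spots of both sections are therefore called marker-ranked spots here. The interval covers the counting of UMIs only, and UMIs came in clumps: among 1226 odorant, vomeronasal and taste receptor genes, best known from sensory tissue and sparse here, 21.4% of gene and spot pairs with a UMI in the fl/fl marker-ranked spots held more than 1, and 29.6% in the K14-Cre ones, although the mean was 0.526 and 0.720 UMIs per gene over all 60 spots. All intervals below are therefore likely too narrow.

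Marker-ranked spots lay deeper in the skin than the remaining spots at the median. Depth was measured as the distance to the nearest keratinocyte-rich spot, the 10% of kept spots with the largest share of keratinocyte UMIs, on the array's 100 µm grid. For the fl/fl spots the distance ran from 265 to 1229 µm with a median of 604 µm (95% rank interval 529 to 700 µm), against a median of 346 µm (300 to 361 µm) in the remaining spots. For the K14-Cre spots it ran from 0 to 954 µm with a median of 458 µm (400 to 529 µm), against 300 µm (265 to 346 µm). The ranges overlapped widely, and neighbouring spots are not independent, so the rank intervals describe these sections only. When the spots of a section were parted into 4 depth classes of about equal size, from the surface down, the fl/fl classes held 0, 4, 25 and 31 marker-ranked spots and the K14-Cre classes 2, 11, 25 and 22. The difference of the medians, 258 µm in the fl/fl section and 158 µm in the K14-Cre section, was 89.5 and 14.1 µm when spots were thinned to 500 UMIs before ranking, and 53.6 µm in the K14-Cre section when Pi16 was left out. By the share of spots above them in the local band of the section, marker-ranked spots had medians of 58.1% and 70.6%, against 48.3% and 48.8% in the remaining spots. None of the fl/fl spots and 1 of the K14-Cre spots was itself keratinocyte-rich.

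**Figure D2:**
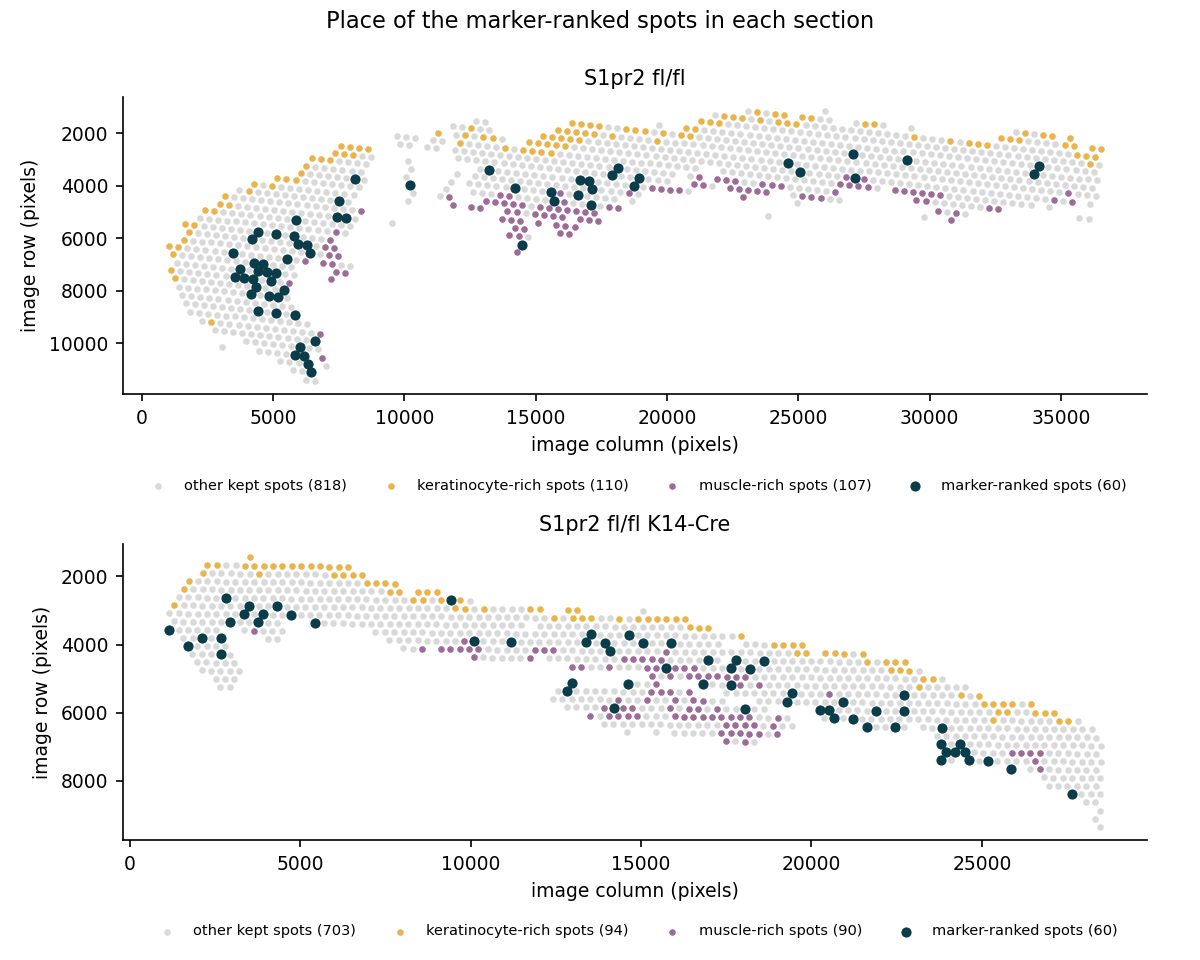
Kept spots of each section at their image positions (x axis, image column; y axis, image row, both in pixels), with the marker-ranked, keratinocyte-rich and muscle-rich spots in colour. Marker-ranked spots lie away from the keratinocyte-rich edge and, in the fl/fl section, 38 of the 60 lie in the curved left end; 1 stray kept fl/fl spot lies beyond the plotted rows.

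Image rows gave the same order, with intervals apart in the fl/fl section but overlapping in the K14-Cre section. Rows are in pixels, larger toward the deep side over most of a section. In the fl/fl section they also changed along the section. A left-end marker-ranked spot at row 5755 had 30.9% of its local band above it, and 1 in the other columns at row 3704 had 78.0%. Rows were not split by stretch, so the fl/fl gap in rows cannot be read as depth alone. The median row was 6130 (4584 to 7191) for the fl/fl marker-ranked spots against 3815 (3678 to 3945) for the remaining spots. It was 4917 (4043 to 5693) against 4514 (4405 to 4726) in the K14-Cre section. The curved left end of the fl/fl section, 25% of the array columns, held 63.3% of the marker-ranked spots but 34.2% of the kept spots, whereas the K14-Cre left end held 23.3% and 23.9%. Within the fl/fl left end the median distance to keratinocyte-rich spots was 700 µm against 361 µm in its remaining spots, and in the other columns it was 447 µm against 346 µm. The K14-Cre medians were 458 against 265 µm and 479 against 346 µm. The greater depth was thus present in both stretches of both sections, and smaller outside the fl/fl left end. When the 60 spots were chosen anew outside that end, the difference of the fl/fl medians fell from 258 to 136 µm.

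The muscle layer was nearer than the epidermis. Median distance to the nearest muscle-rich spot was 265 µm for the marker-ranked spots against 400 µm for the remaining spots in the fl/fl section, and 265 against 300 µm in the K14-Cre section, while 3 and 5 of the 60 were muscle-rich themselves. Marker-ranked spots also lay side by side in the fl/fl section: of the kept spots adjacent to one of them, 19.2% were marker-ranked, against 5.09% of those adjacent to a remaining spot, and 39 of 60 touched another. Its largest connected group held 12 spots, all in the left end. The K14-Cre shares were 10.9% and 5.56%, 24 of 60 touched another, and the largest group held 7 spots, 0 of them in the left end.

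**Figure D3:**
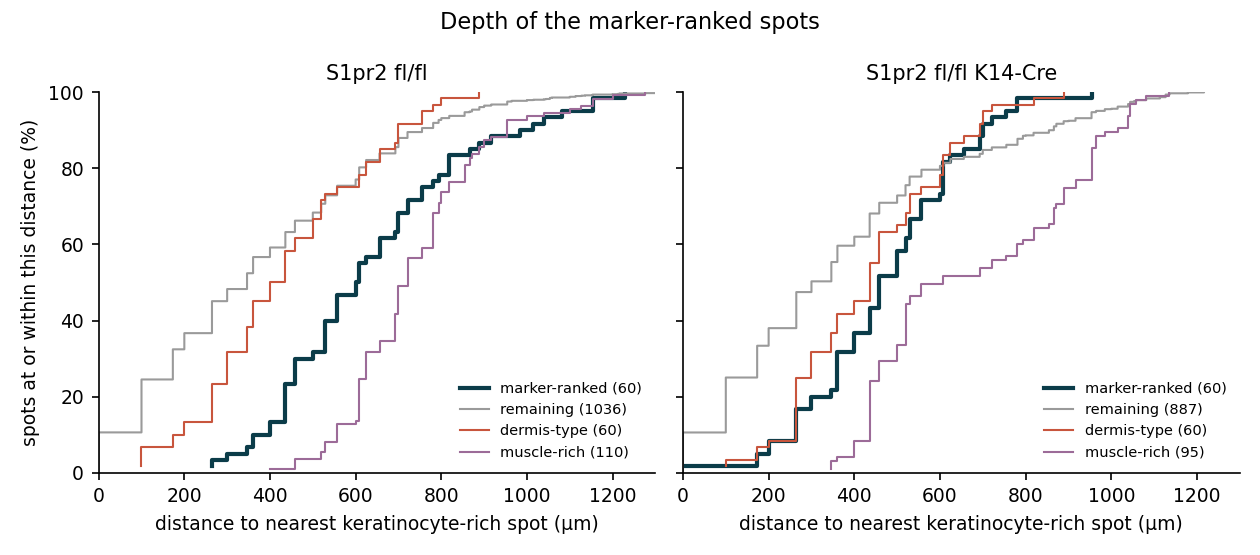
Share of spots (y axis, percent) at or within a given distance to the nearest keratinocyte-rich spot (x axis, µm), for marker-ranked, remaining, dermis-type and muscle-rich spots. The curve of the marker-ranked spots runs between those of the dermis-type and muscle-rich spots in the fl/fl section (medians of 604 and 418 µm for marker-ranked and dermis-type spots) and close to the dermis-type curve in the K14-Cre section (458 and 436 µm).

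Against dermis-type spots, the top 60 by the share of Col1a1, Col1a2 and Col3a1 UMIs, the marker-ranked spots shared 10 of 60 spots in the fl/fl section (16.7%) and 4 in the K14-Cre section (6.67%), where the marker-ranked spots made up 5.47% and 6.34% of all kept spots. Fat-type spots, ranked on Adipoq, Plin1, Cidec and Lep, shared 12 and 4, and muscle-type spots, ranked on Acta1, Ckm and Mylpf, shared 2 and 4. The class medians of distance were 418 and 436 µm for dermis-type, 529 and 361 µm for fat-type and 768 and 738 µm for muscle-type spots, fl/fl before K14-Cre. Marker genes summed to 828 and 504 CPM in dermis-type spots, to 774 and 446 CPM in fat-type spots and to 168 and 209 CPM in muscle-type spots.

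Other genes were then described by the ratio of their CPM in the marker-ranked spots to that in the remaining spots, summed over spots, for genes with at least 100 UMIs in the kept spots of a section. A gene was called higher at a ratio of 2 or more with an interval above 1, and lower at 0.5 or less with an interval below 1. In the fl/fl section 763 of 8461 genes were called higher (9.02%) and 602 lower (7.11%), and in the K14-Cre section 351 of 5755 were higher (6.10%) and 542 lower (9.42%). With TMM scaling, which moved the median gene from 0.04 to -0.28 (log2) in the fl/fl section and from -0.10 to -0.34 in the K14-Cre section, the split was 344 higher and 1131 lower, and 182 higher and 856 lower. Of 5653 genes measured in both sections, 71 were higher in both (1.26%), 136 were lower in both (2.41%) and 25 were called in opposite directions (0.442%). Since the same spots and UMIs were used to choose the spots, none of these calls is a test, and the spots' depth in the skin enters all of them.

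Genes of the universal and fascia fibroblast programme that the ranking did not use were high in the fl/fl spots. Of 19 measured genes 14 were called higher and 0 lower, and the median log2 ratio was 1.43 against 0.04 over all genes. Of 16 measured in the K14-Cre section 6 were called higher and 0 lower, with a median of 0.88 against -0.10. With spots thinned to 500 UMIs before ranking, 1 of 19 and 1 of 16 were called higher, with medians of 0.36 and 0.43. Of all genes 1.54% and 2.83% were called higher then. The fl/fl count was 5 with at most 1 UMI counted per gene and spot, where 2.22% of all genes were called higher. The K14-Cre count was 1 when Pi16 was left out of the ranking or the markers were weighted equally. All genes were called higher at shares of 6.01% and 5.18% in these settings. The summed level was 7235 CPM against 2675 CPM in the fl/fl section and 6330 against 3552 CPM in the K14-Cre section. Cd34, the surface sialomucin that marks these cells, was called in both, at 3.17-fold (2.46 to 4.04) and 2.78-fold (2.03 to 3.75). Anxa3, Ackr3, a scavenging receptor for the chemokine Cxcl12, Cd248 and the matrix protein gene Tnxb were also called in both, at 2.67, 2.74, 2.87 and 2.45-fold in the fl/fl section and 3.07, 2.81, 2.18 and 2.28-fold in the K14-Cre section.

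Clec3b, for tetranectin, showed where the sections parted. Among the fl/fl marker-ranked spots its level ran from 0 to 2740 CPM with a median of 762 CPM, and it was at 0 in 14 of 60 spots. The remaining fl/fl spots ran from 0 to 5877 CPM with a median of 0. Among the K14-Cre marker-ranked spots it ran from 0 to 4804 CPM with a median of 461 CPM and was at 0 in 25 spots, against a median of 0 in the remaining spots. The distributions overlapped in full, with the marker-ranked spots shifted toward the upper side. Over summed counts Clec3b was 3.88-fold (3.36 to 4.46) in the fl/fl section and 1.54-fold (1.24 to 1.90) in the K14-Cre section. Dpt, for dermatopontin, was 2.69-fold and 1.46-fold, Mfap5, a microfibril gene, was 3.16-fold (1.96 to 4.88) and 0.996-fold (0.359 to 2.22), and Pdgfra, the receptor that marks most fibroblasts, was 2.68-fold (1.96 to 3.60) and 0.660-fold (0.263 to 1.38). The last 2 values rest on 6 and 7 UMIs in the K14-Cre spots. Axl, Pcolce2, Sema3c and Procr were called in neither section.

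Matrix genes were high in the fl/fl marker-ranked spots, and collagen genes were higher still in the dermis-type spots. Of 8 dermal collagen genes measured in the fl/fl section 5 were called higher, and of 9 in the K14-Cre section 0. Col3a1, a fibrillar collagen of loose connective tissue, ran from 826 to 17982 CPM over the fl/fl marker-ranked spots with a median of 10393 CPM, against a median of 4788 CPM in the remaining spots, a summed ratio of 2.17 (2.07 to 2.26). Its K14-Cre levels ran from 0 to 27987 CPM with a median of 9553 CPM, against 4754 CPM, a summed ratio of 1.50 (1.42 to 1.59). The collagen list summed to 27091 CPM in the fl/fl marker-ranked spots, 13189 CPM in the remaining spots and 39394 CPM in the dermis-type spots, which were chosen on 3 of these genes. Its K14-Cre values were 23112, 18958 and 59859 CPM.

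Small proteoglycans, which coat and space collagen fibrils, were called higher for Lum, Bgn, Ogn and Prelp of 6 measured in the fl/fl section and for 0 of 6 in the K14-Cre section, where Lum stood at 1.92-fold (1.50 to 2.42). Of the elastic fibre and microfibril genes 8 of 12 were called higher in the fl/fl section, among them Emilin2 at 3.34-fold and Loxl1, a cross-linking enzyme of elastic fibres, at 2.77-fold. Of 11 in the K14-Cre section 2 were, Fbln5 at 2.22-fold and Efemp1 at 2.09-fold. No gene of the tendon list (0 of 3 measured in each section) was called, and Tnmd and Scx, which define tendon cells, had 4 UMIs and 1 UMI in the fl/fl spots and 0 and 10 in the K14-Cre spots. Of the hyaluronan genes, 1 of 7 measured was called higher in the fl/fl section, the proteoglycan gene Vcan at 2.11-fold, and 1 lower, the hyaluronan-degrading Cemip with 0 UMIs, while 0 of 6 were called in the K14-Cre section.

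**Figure D4:**
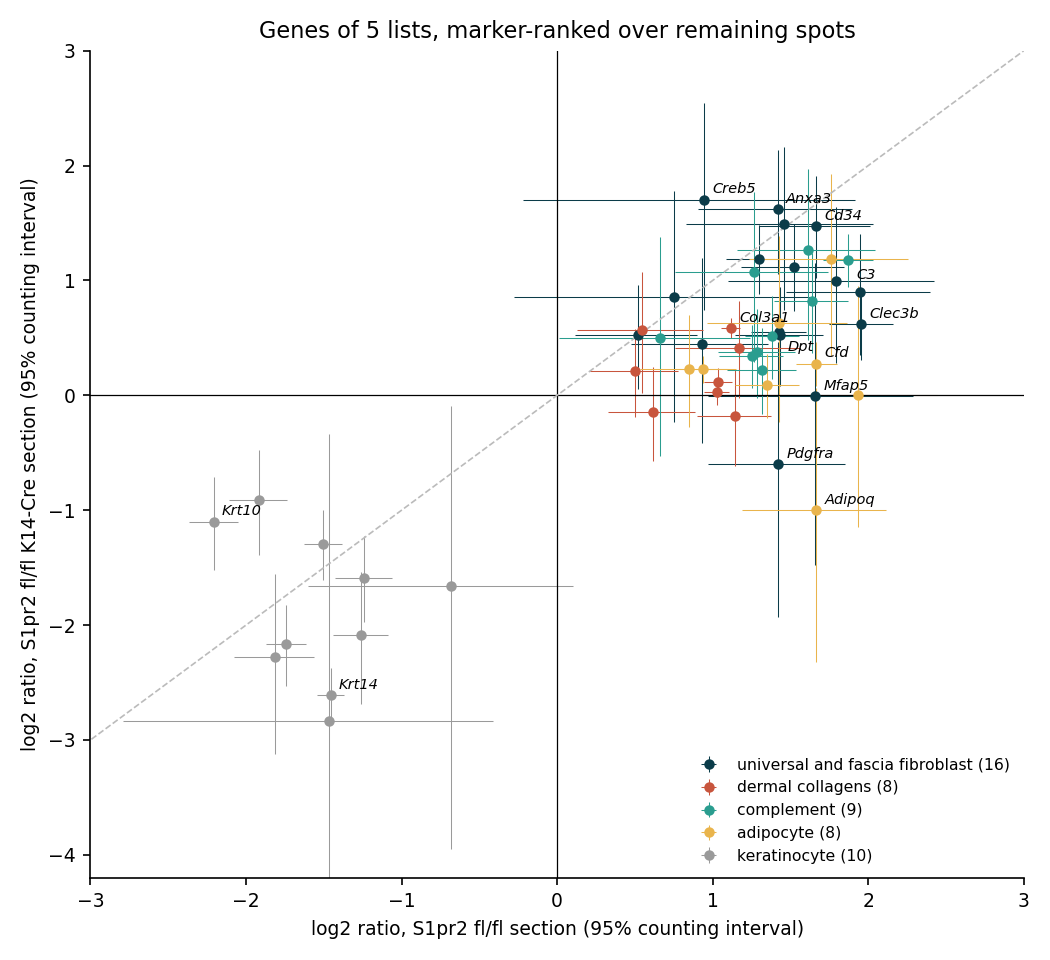
Log2 ratio of CPM in marker-ranked over remaining spots for the measured genes of 5 lists, fl/fl section on the x axis and K14-Cre section on the y axis, with 95% counting intervals and a dashed line of equal ratios; 1 keratinocyte gene's interval, that of Trp63, runs below the y axis. Most fibroblast, collagen, complement and adipocyte genes lie below the dashed line, with Cd34 and Clec3b at 3.17-fold and 3.88-fold in the fl/fl section and 2.78-fold and 1.54-fold in the K14-Cre section.

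Complement genes were another high group, made by fibroblasts (C3, C4b, C1ra, Serping1) and by macrophages (C1qa, C1qb, C1qc). Of 9 measured, 8 were called higher in the fl/fl section and 3, C3 and C1ra among them, in the K14-Cre section, and none was lower. C3, the central component, ran from 0 to 5385 CPM with a median of 1418 CPM in the fl/fl marker-ranked spots, against a median of 215 CPM in the remaining spots. Over the K14-Cre spots it ran from 0 to 7568 CPM with a median of 813 CPM, against a median of 0. C3 was at 0 in 21.7% of the fl/fl spots and 28.3% of the K14-Cre spots, and the groups overlapped. The summed ratios of C3 were 3.65 (3.26 to 4.08) and 2.27 (1.93 to 2.65). Serping1, the inhibitor of the first complement component, was 3.11-fold and 1.77-fold. Dermis-type spots held less C3 than the marker-ranked spots, 1316 against 1884 CPM in the fl/fl section and 315 against 1481 CPM in the K14-Cre section, while the universal fibroblast list stood at 6845 against 7235 CPM and at 6132 against 6330 CPM. Fat-type spots held 1575 CPM of C3 in the fl/fl section and 1643 CPM in the K14-Cre section, and their complement list stood at 6012 and 5088 CPM beside 7736 and 5014 CPM in the marker-ranked spots.

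Of genes through which fibroblasts take part in inflammation, 3 of 12 measured were called higher in the fl/fl section, beside 9.02% of all genes. In the K14-Cre section 0 of 9 were, beside 6.10% of all genes. The 3 were Ccl11, the eosinophil chemokine eotaxin, at 4.95-fold (3.26 to 7.30), Cxcl14 at 4.44-fold (3.63 to 5.39) and Cxcl12, a chemokine of stromal cells, at 2.22-fold (1.92 to 2.56). Their K14-Cre ratios were 2.14-fold (0.897 to 4.41), 1.75-fold (1.13 to 2.61) and 1.17-fold (0.748 to 1.74). Cxcl14 was unevenly spread among the fl/fl spots: it was at 0 in 30 of 60, had a median of 91.0 CPM and reached 3516 CPM. It stood at 822 CPM in the marker-ranked spots of the left end and at 173 CPM (83.1 to 319) in those of the other columns. The remaining spots of the whole section, left end included, held 141 CPM. Their level by stretch is not given here, so whether Cxcl14 was high in the left end at large cannot be read from these values. Saa3, Lcn2 and Mmp3, which inflamed skin makes in large amounts, were near the level of the remaining spots in both sections, at 1.14, 1.41 and 1.34-fold and at 1.11, 1.25 and 1.23-fold. Of the genes of activated fibroblasts 0 of 5 measured were called in the fl/fl section and 1 of 6 in the K14-Cre section. The 1 was the matrix gene Tnc, lower at 0.328-fold (0.179 to 0.553), where 9.42% of all genes were called lower. The papillary and dermal papilla list had Ntn1 and Sox18 called higher of 6 in the fl/fl section, where 9.02% of all genes were. Apcdd1 and Crabp1 were called lower of 4 in the K14-Cre section, each on 1 UMI, where 9.42% of all genes were called lower. Of the Wnt, BMP and TGF-beta regulators, Bmp7 was lower in the fl/fl section (1 of 6, on 2 UMIs) and Sfrp2, a secreted Wnt antagonist, higher in the K14-Cre section (1 of 5) at 3.52-fold.

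Lipid mediator genes were sparse, and their counts of 1 or 2 called genes a list are to be read against the shares of all genes. These shares were 9.02% and 6.10% called higher and 7.11% and 9.42% called lower, fl/fl before K14-Cre. The same holds for the hyaluronan, inflammation, activated fibroblast, papillary and Wnt lists, and for adipocyte, elastic fibre and Schwann genes of the K14-Cre section. Enpp2 was part of the ranking. Of the other genes of the autotaxin pathway, Lpar1, the main lysophosphatidic acid receptor of fibroblasts, was called higher in the fl/fl section at 2.31-fold (1.48 to 3.45), 1 of 7 measured, and had 6 UMIs in the K14-Cre spots (0.546-fold, 0.198 to 1.20). In the K14-Cre section Plpp3, a phosphatase that degrades lysophosphatidic acid, was higher at 2.31-fold (1.80 to 2.94) and Plpp1, a related phosphatase, lower at 0.382-fold on 4 UMIs. Among the sphingosine-1-phosphate genes, the receptor genes S1pr1 and S1pr2 were called higher in the fl/fl section (2 of 9 measured), at 3.32-fold on 17 UMIs and 2.06-fold on 11 UMIs, while the list as a whole stood at 1.04-fold with a median log2 ratio of -0.27. S1pr2 had 0 UMIs in the K14-Cre marker-ranked spots, which allows a level of up to 26.0 CPM (3 UMIs over the spots), against 57.4 CPM in the fl/fl spots and 19.8 CPM in the remaining K14-Cre spots. The kinase gene Sphk1 and the lyase gene Sgpl1 were called higher in the K14-Cre section (2 of 5 measured), the former with 9 of its 10 UMIs in 1 spot. Ace, of the membrane peptidases, was 2.24-fold in the fl/fl section and 0.602-fold (0.240 to 1.26) in the K14-Cre section.

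Markers of other cell types moved with the fibroblast genes in the fl/fl section, and their part in the values above was not tested. The adipocyte list summed to 7068 CPM against 2821 CPM in the fl/fl section, with 6 of 9 genes called higher. It summed to 9248 against 7922 CPM in the K14-Cre section, with 1 of 8, the cytokine gene Retn. Of all genes 9.02% and 6.10% were called higher in these sections. Cfd (adipsin), which had a median of 1703 CPM in the fl/fl marker-ranked spots and 180 CPM in the remaining ones, had 637 and 290 CPM in the K14-Cre section. Adipoq, which defines adipocytes, was 3.18-fold (2.28 to 4.33) and 0.501-fold (0.200 to 1.04). The macrophage list summed to 2725 against 1139 CPM and 1836 against 1072 CPM, with 5 of 6 and 2 of 7 genes called higher, Cd163 (2.66 and 2.38-fold) and F13a1 (2.68 and 2.01-fold) in both sections. These are genes of resident tissue macrophages. The K14-Cre log2 ratio of Cd163 turned to -0.46 when Pi16 was left out of the ranking and to -0.12 with equal weights.

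Of the nerve and Schwann cell genes 3 of 3 measured were called higher in the fl/fl section, Mbp and Pmp22 of the myelin sheath among them, and 1 of 5 in the K14-Cre section, Pmp22. The level of Pmp22 was 3.02-fold and 2.14-fold that of the remaining spots. In the fl/fl marker-ranked spots outside the left end the list held 520 CPM (351 to 742), against 320 CPM in the remaining spots of that section. The mast cell proteases Cma1 and Mcpt4 were 3.57-fold and 3.45-fold in the fl/fl section, 2 of 2 measured, and the mast cell list summed to 433 against 115 CPM there and to 251 against 103 CPM in the K14-Cre section, where 0 of its genes reached the minimum. Blood vessel endothelium was called for Pecam1, Vwf and Egfl7 of 6 in the fl/fl section, and in the K14-Cre section 0 of 4 was higher and Cdh5 was lower on 1 UMI. Haemoglobin genes were uncalled, at 2662 against 1410 CPM and 251 against 339 CPM as a list. Mesothelial markers other than Msln were at or near 0 in both sections, with 0 genes over the minimum, a sum of 20.9 CPM in the fl/fl spots and 69.3 CPM in the K14-Cre spots, and Wt1 at 0 and 3 UMIs. A sparse receptor gene had a mean of 0.526 and 0.720 UMIs over the same spots. Of the synovial genes beside Prg4 (3 and 2 measured) and the pericyte and smooth muscle genes (5 and 4) none was called. Only 1 lymphatic gene was measured in each section, and of the T cell genes 2 in the fl/fl section and 0 in the K14-Cre section, so these lists allowed hardly any call.

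**Figure D5:**
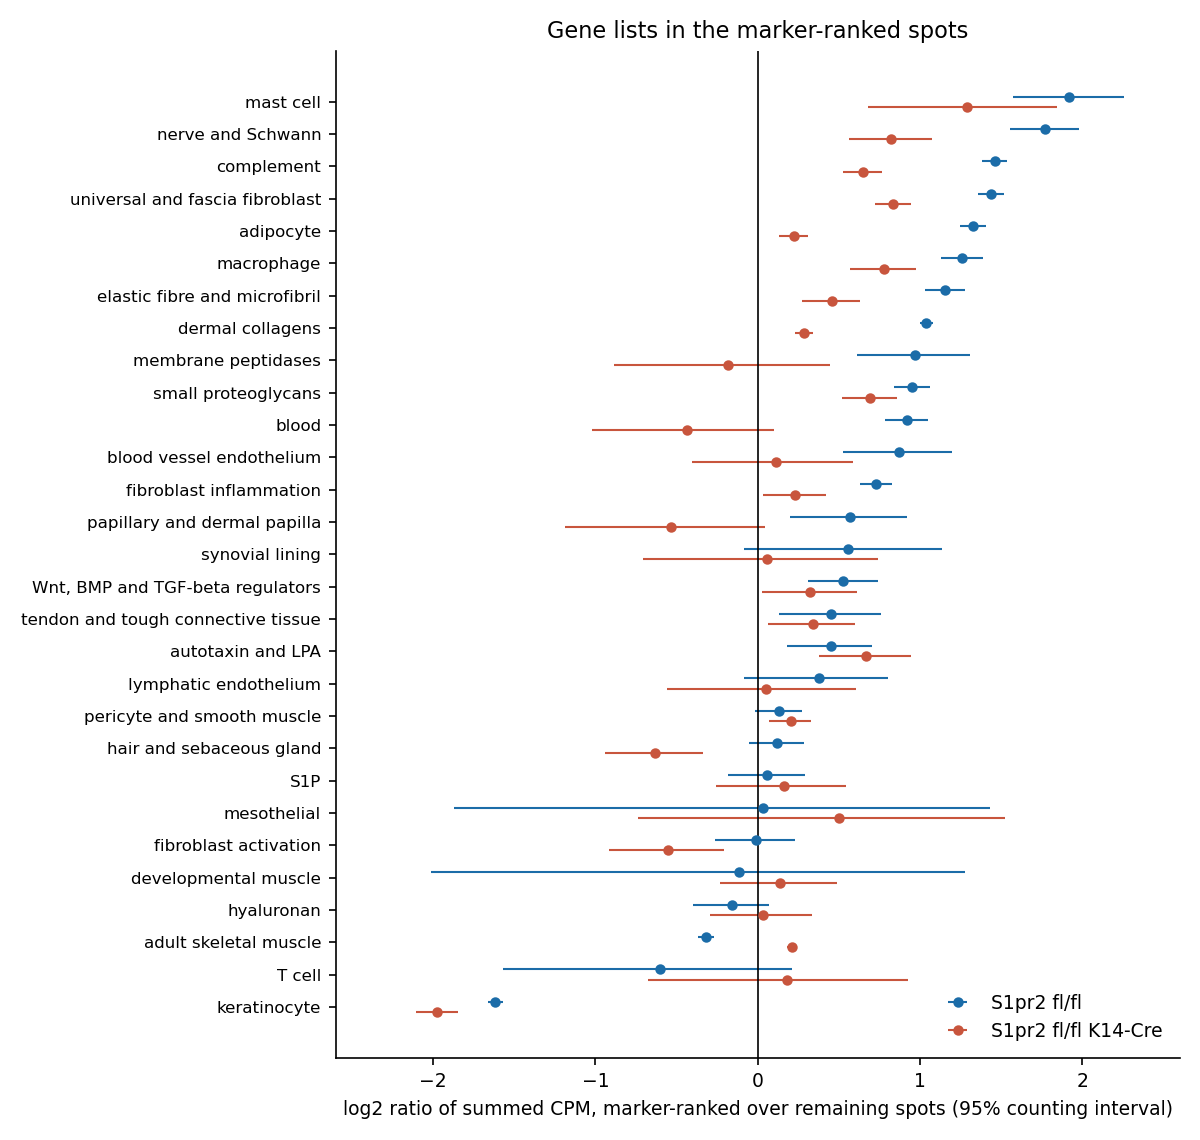
Log2 ratio of the summed CPM of each gene list in marker-ranked over remaining spots (x axis) with its 95% counting interval, by section, lists ordered by the fl/fl value (y axis). Of the lists that the ranking did not use, mast cell, Schwann, complement and fibroblast lists are highest in the fl/fl section, at 3.78, 3.41, 2.75 and 2.70-fold. They stand at 2.44, 1.77, 1.56 and 1.78-fold in the K14-Cre section, and keratinocyte genes are lowest in both.

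Keratinocyte genes were low in both sections. Of 11 measured in the fl/fl section 9 were called lower and of 10 in the K14-Cre section 9, at 18222 against 55860 CPM and 4382 against 17226 CPM as a list. The median log2 ratio of the list was -1.47 in the fl/fl section and -1.87 in the K14-Cre section. It turned to 0.35 in the latter with distance held to the middle range, and to 0.23 in the former with at most 1 UMI counted per gene and spot. Why these medians turned was not tested. Krt14 was at 0 in 1.67% of the marker-ranked and 0.579% of the remaining fl/fl spots, so a count capped at 1 UMI cannot show its level. Krt14, whose promoter drives Cre here, ran from 0 to 16428 CPM with a median of 5716 CPM in the fl/fl marker-ranked spots, against a median of 11135 CPM in the remaining spots, and from 0 to 11679 CPM with a median of 619 CPM in the K14-Cre spots, against 2282 CPM. Only 1 fl/fl spot but 21 K14-Cre spots had no Krt14 UMI. Adult skeletal muscle genes had no stable direction in either section. The fl/fl list stood at 16249 against 20274 CPM, with Myh2 and Mb, 2 of 11, called lower, where 7.11% of all genes were. The K14-Cre list stood at 74695 against 64540 CPM with 0 of 11 called, and its median log2 ratio of 0.21 turned to -0.03 with TMM scaling and changed sign under 7 of the alternatives, reaching -0.46. The fl/fl median of -0.44 changed sign under 5 of the alternatives, reaching 0.55. Of the muscle genes of development 0 of 5 measured was called in the K14-Cre section.

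Values also varied with depth among the marker-ranked spots. The 30 fl/fl marker-ranked spots nearer to keratinocyte-rich spots held 22216 CPM of keratinocyte genes and 9933 CPM of muscle genes, and the 30 farther ones 13327 and 23993 CPM. Cxcl14 stood at 294 and 1034 CPM and C3 at 1422 and 2452 CPM in the nearer and farther spots, while Clec3b (1137 and 1220 CPM), Cd34 (379 and 407 CPM) and Dpt (1554 and 1429 CPM) were nearly level. In the K14-Cre section the nearer and farther spots held 53921 and 97214 CPM of muscle genes, 1099 and 1895 CPM of C3 and 3280 and 794 CPM of Cfd. There the intervals of the nearer and farther spots overlapped for Cxcl14 (152 to 433 and 86.5 to 332 CPM), Cd34 (190 to 494 and 365 to 773 CPM) and Dpt (719 to 1229 and 1177 to 1837 CPM). When marker-ranked and remaining spots were both held to the middle range of the marker-ranked spots' distances (31 spots in the fl/fl section), the median log2 ratio of the fibroblast list was 0.75 in the fl/fl section, with 4 of 19 genes called higher, and 0.36 in the K14-Cre section, with 2 of 16 called on 30 spots. At these distances all 11 muscle genes were called lower in the fl/fl section, and 0 of the 11 keratinocyte genes was.

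Marker-ranked spots of the fl/fl left end held a different mixture from those of the section's other columns. Levels of the remaining spots are not given by stretch here. The 38 marker-ranked spots of the left end had 2278 CPM of C3 (95% Poisson interval 2029 to 2549 CPM) and 822 CPM of Cxcl14 (675 to 990 CPM), and the 22 spots of the other columns 971 (733 to 1261) and 173 CPM (83.1 to 319). Gsn (gelsolin) and Apod, an apolipoprotein gene of fibroblasts and nerves, followed at 1695 and 2069 CPM against 763 and 849 CPM. Pi16 (1031 and 1057 CPM), Enpp2 (239 and 243 CPM), Clec3b (1240 and 1023 CPM), Dpt (1531 and 1421 CPM) and Col1a1 (5624 and 6362 CPM) were close. The fibroblast list as a whole was not, at 7842 (7375 to 8331) and 5824 CPM (5218 to 6482), nor was Tnxb, at 1255 (1072 to 1460) and 797 CPM (584 to 1064). Muscle genes summed to 9851 CPM in the left end and 31098 CPM in the other columns, and keratinocyte genes to 15961 and 23471 CPM. Nerve and Schwann genes summed to 1337 (1148 to 1548) and 520 CPM (351 to 742). Macrophage genes summed to 3025 (2737 to 3334) and 2028 CPM (1677 to 2431). The part of these cell types in the other values was not tested. Of the 763 genes called higher over the fl/fl section, 163 were also called when the 60 spots were chosen outside the left end, where 282 were called in all.

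Among the genes that the ranking did not use and that are reported here, those called higher in both sections were led by Dennd2a, a regulator of membrane traffic, at 3.82-fold (2.29 to 6.05) in the fl/fl section and 3.37-fold (1.99 to 5.40) in the K14-Cre section. The 20 with the highest smaller ratio of the 2 sections included Dennd2a, Glb1l2, Gbgt1, Pid1, Slc28a2, Tango2, Cd34, Il3ra, Gfpt2, Ackr3, Nid1, Zscan25, Anxa3, Arhgap9, Trim44, Fgd2, Dpysl3, Spry2 and Cd163. Nid1, for the basement membrane protein nidogen, was 2.74-fold and 2.81-fold on 31 and 37 UMIs. Gfpt2, an enzyme of hexosamine synthesis found in mesenchymal cells, was 4.34-fold and 2.75-fold on 26 and 12 UMIs. In the K14-Cre section the log2 ratio of Nid1 turned to -0.071 without Pi16 in the ranking, and that of Gfpt2 to -0.39 with spots ranked on 0.5 of the UMIs. Tango2 had 11 of its 20 K14-Cre UMIs in 1 spot and Il3ra 12 of its 24. With at most 1 UMI counted per gene and spot, only Dennd2a and Ackr3 of these 19 were still called in both sections. With distance held to the middle range Dennd2a and Trim44 were, and with the 60 spots chosen outside the left end Dennd2a, Cd34, Il3ra and Cd163 were, of only 9 that reached the minimum there in both sections. With spots thinned to 500 UMIs before ranking, which kept 17 of the 60 spots in the fl/fl section and 22 in the K14-Cre section, 0 of the 19 were called in both.

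The 10 genes lowest in both sections were Aox4, Chchd10, AI661453, Mpzl2, Tmprss13, Irx5, Nectin4, Evpl, Lama3 and Casp14. Evpl (envoplakin) and Casp14, both of the cornifying epidermis, were 0.243-fold (0.164 to 0.348) and 0.252-fold (0.189 to 0.330) in the fl/fl section and 0.197-fold (0.0900 to 0.376) and 0.262-fold (0.113 to 0.519) in the K14-Cre section. Lama3, a chain of the laminin of the epidermal basement membrane, had 2 UMIs and 1 UMI in the marker-ranked spots. None of the 10 was still called in both sections with at most 1 UMI per gene and spot, only Chchd10 with distance held, and only Lama3 with thinned spots.

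Of the 5653 genes measured in both sections, 139 (2.46%) were called higher in the fl/fl section with an interval wholly above that of the K14-Cre section, with Xpc, Lrrn4cl, Cxcl14 and Gatm among the 5 highest, and 47 (0.831%) the other way round, led by Pex7, Uap1l1, C77080, Mettl26 and Tbce. Lrrn4cl, a surface protein gene of fibroblasts, was 5.05-fold (2.97 to 8.21) in the fl/fl section and 1.13-fold (0.446 to 2.39) in the K14-Cre section. Gatm, an enzyme of creatine synthesis, was 4.39-fold (3.13 to 6.03) and 1.55-fold (0.931 to 2.43). Some of these counts were clumped. In the K14-Cre section Pex7, a peroxisomal import receptor, was 5.29-fold (3.17 to 8.47) on 22 UMIs, 9 of them in 1 spot. Uap1l1 had 14 of 16 UMIs there in 1 spot. In the fl/fl section Gatm had 9 of 45 in 1 spot and Cxcl14 15 of 120. Of the 120 Cxcl14 UMIs, 110 lay in the left end.

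Set side by side, the marker-ranked spots of the K14-Cre and fl/fl sections had similar sums of the fibroblast list, 6330 and 7235 CPM, a ratio of 0.875 (0.799 to 0.958), and of the collagen list, a ratio of 0.853 (0.814 to 0.894). Complement stood at 0.648 (0.588 to 0.714), the fibroblast inflammation list at 0.430 (0.370 to 0.498) and macrophages at 0.674 (0.572 to 0.792). In the remaining spots the log2 values of these ratios were 0.52 for collagens, 0.19 for complement, -0.72 for the inflammation list and -0.087 for macrophages, so that collagens and complement had the opposite sign there. Much larger gaps lay in genes of other tissue: adult muscle at 4.60 (4.41 to 4.79), keratinocytes at 0.240 (0.219 to 0.264) and haemoglobin at 0.0943 (0.0625 to 0.137). Developmental muscle stood at 28.2 (10.5 to 106), on only 4 UMIs in the fl/fl spots. In the remaining spots the same ratios had log2 values of 1.67 for adult muscle, -1.70 for keratinocytes, -2.06 for haemoglobin and 4.56 for developmental muscle. The sections thus differed as a whole in these. The sparse receptor genes named above summed to 7646 CPM in the K14-Cre and 3367 CPM in the fl/fl marker-ranked spots. In the remaining spots they summed to 7287 and 2684 CPM. Values near 0 in either section are to be read beside these. The fibroblast list, at -0.19 (log2) in the marker-ranked spots, was at 0.41 in the remaining spots. Its value was 0.010 (log2) when each spot counted alike. The left end held 63.3% of the fl/fl but 23.3% of the K14-Cre marker-ranked spots. Outside it the K14-Cre and fl/fl spots held 5348 (4874 to 5855) and 5270 CPM (4694 to 5897) of complement. Macrophage genes stood there at 1817 (1545 to 2122) and 2028 CPM (1677 to 2431). The fibroblast list had the opposite order there, at 6765 (6231 to 7332) and 5824 CPM (5218 to 6482).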

How the data were processed

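Visium CytAssist spatial transcriptomics of formalin-fixed skin covered 1 section per genotype. The deposited files held raw UMI counts per gene and spot over tissue, made by the authors with Space Ranger (matrix header 3.0.0, build mm10 per the labels). The probe set was not given in the sources used here. Counts covered 19465 genes, 11 symbols on more than 1 row, kept apart by identifier. Spots under 500 UMIs were left out, and no doublet caller was run. Ratios of CPM carry exact conditional binomial 95% intervals, levels exact Poisson intervals, and medians rank intervals, all covering counting or rank error only. Python 3.11.15, numpy 2.4.6, scipy 1.17.1 and pandas 2.3.3 were used, with edgeR 4.0.16 in R 4.3.3 for TMM factors only. The count script was tested on simulated data. Members, 30 gene lists and named genes (listed genes, the 20 highest and 10 lowest in both sections, and the 5 highest apart in each) were chosen with earlier results of these data known; 2 genes that the rule would name are not reported here. Marker coordinates came from RefSeq (GRCm38.p6). Alternatives changed the filters, markers, weights, scaling and comparison spots.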

Additional observations from a re-analysis of the deposited data

Results flagged for a closer look

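C77080 was called in opposite directions in the 2 sections. In the fl/fl section it stood at 36.5 CPM in the marker-ranked spots against 78.5 CPM in the remaining spots, 0.465-fold (0.186 to 0.968) on 7 UMIs, and in the K14-Cre section at 165 against 41.9 CPM, 3.93-fold (2.28 to 6.42) on 19 UMIs in 7 spots. The difference between the sections was not tested, since each genotype had 1 section. The K14-Cre value turned to -0.10 (log2) when Pi16 was left out of the ranking.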

How the results depend on the processing

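No paired analysis was possible because each genotype has 1 section. At most 1 UMI per gene and spot, and the same distance range, were chosen after seeing the data, as was a minimum of 3 marker UMIs. The cause of a move was not tested. The difference of the median distances (258 µm in the fl/fl section, 158 µm in the K14-Cre section) was 89.5 and 14.1 µm with spots thinned to 500 UMIs before ranking, 136 µm in the fl/fl section without the left end and 53.6 µm in the K14-Cre section without Pi16. The 763 genes of 8461 higher in the fl/fl section became 505 with the top 120 spots, 376 with equal weights, 130 thinned, 282 of 6641 without the left end, 344 with TMM, 1430 of 19255 with no minimum, 241 of 3791 with a minimum of 300 UMIs, 178 of 5272 against spots within 300 µm, 188 with at most 1 UMI and 508 at the same distance. The 602 lower became 317 with equal weights, 180 thinned, 322 ranked on 0.5 of the UMIs, 1131 with TMM, 292 of 5272 within 300 µm, 284 with at most 1 UMI and 398 at the same distance. In the K14-Cre section the 351 of 5755 higher became 191 with 120 spots, 163 thinned, 182 with TMM, 850 of 12810 with a minimum of 30 UMIs, 1192 of 19237 with none, 46 of 1735 with 300, 136 of 3277 within 300 µm and 70 with at most 1 UMI, and the 542 lower became 272 on 0.5 of the UMIs, 856 with TMM, 222 of 1735 with a minimum of 300, 248 of 3277 within 300 µm, 113 with at most 1 UMI and 270 at the same distance. Without a minimum the shares called higher were 7.43% and 6.20%, against 9.02% and 6.10%. The fibroblast list's median log2 ratio (1.43 and 0.88) was 0.36 and 0.43 thinned, 0.75 and 0.36 at the same distance, and 0.85 in the fl/fl section with at most 1 UMI. Its K14-Cre over fl/fl value (-0.19) was -0.065 with at least 1000 UMIs, -0.052 with 30 spots, -0.028 with 120 and 0.010 as the mean of spot CPM.

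Of the other called values, genes and lists, 33 changed sign (log2). The medians of lists with few or no called genes did so in 19 further cases, in the adult muscle list of both sections and the collagen, adipocyte and Schwann lists of the K14-Cre section. In the fl/fl section these were Trim44 (-0.27, top 30), Lama3 (0.46, equal weights), Glb1l2 (-0.94), Slc28a2 (-0.26), Fgd2 (-0.091), Spry2 (-0.49) and Chchd10 (0.10) thinned, Gbgt1 (-0.17) and Zscan25 (-1.34) ranked on 0.5 of the UMIs, Mpzl2 (0.20) without the left end, and the keratinocyte list (0.23) with at most 1 UMI. In the K14-Cre section they were Gbgt1 (-1.26, top 30), Slc28a2 (-2.31, without Enpp2), Arhgap9 (-0.51, without Scara5), Nid1 (-0.071), Zscan25 (-0.39), Cd163 (-0.46), Uap1l1 (-1.37) and C77080 (-0.10) without Pi16, and Tango2 (-0.57), Arhgap9 (-0.20), Cd163 (-0.12) and C77080 (-0.070) with equal weights. Gbgt1 was -0.74 thinned, and Gfpt2 (-0.39) and Trim44 (-0.084) turned when ranked on 0.5 of the UMIs. At the same distance the keratinocyte list (0.35), Slc28a2 (-1.24), Arhgap9 (-1.04), Tmprss13 (0.47), Irx5 (0.16), Nectin4 (0.47) and Lama3 (1.54) did.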
